A study of Canis lupus familiaris with 6 samples.

Results

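The nuclear genes of the mitochondrial respiratory chain, complexes I to V with cytochrome c, were followed in left ventricular RNA of Great Danes with cardiomyopathy and of control dogs. A gene was taken where a probe set had exactly 1 symbol in the annotation of the canine Affymetrix array and that symbol named a subunit by its prefix (NDUFA, NDUFB, NDUFC, NDUFS or NDUFV with a number, SDHA to SDHD, UQCR, COX4 to COX8 or ATP5) or was CYC1 or CYCS. This gave 63 genes on 120 probe sets, of 15115 genes on 42924 probe sets in all. Complex I held 33 of the genes, complex II 4, complex III 8 with CYC1, complex IV 7 and complex V 10, and cytochrome c stood alone. The affected group was 3 Great Danes, a female of 9 years (affected 1) and 2 males of 7 years (affected 2 and affected 3). The control group was a male Labrador retriever of 12 years (control 1), a female St. Bernard of 10 years (control 2) and a male Greater Swiss Mountain dog of 4 years (control 3). No treatment or engineered allele is given for any dog. All affected dogs were of 1 breed and no control was, so breed and disease cannot be told apart.

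The respiratory chain passes electrons from NADH and succinate to oxygen across the inner mitochondrial membrane and uses the proton gradient so built to make ATP. Complex I takes electrons from NADH and complex II from succinate, ubiquinone carries them to complex III, cytochrome c carries them on to complex IV, and complex V is the ATP synthase. Heart muscle makes nearly all its ATP this way and is packed with mitochondria. The genes described here lie in the nucleus, while the catalytic centre of complex IV and some subunits of complexes I, III and V are encoded by mitochondrial DNA, whose genes are not members.

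Values are on the log2 scale, centred for each probe set on its median of the 6 arrays, and the probe sets of a gene were averaged. Levels of different genes therefore cannot be compared, and whether a gene or a tissue marker was strongly expressed cannot be read from these values. The array's 17 control tag probe sets, which are not built for any dog transcript, averaged -0.03 on the affected arrays and 0.07 on the controls. Of all probe sets, 41.8% followed these tags over the arrays at a correlation above 0.9, against 5 (4.17%) of the 120 respiratory chain probe sets. Spiked poly-A control transcripts averaged 0.55, -0.23 and 2.53 on affected 1, 2 and 3, and lay between -0.22 and -0.0052 on the controls. The array's bioC control probe sets averaged -1.66, -0.04 and -1.25 on affected 1, 2 and 3, and lay between 0.05 and 0.19 on the controls. An RNA quality measure, the signal of 3' probe sets minus that of 5' probe sets averaged over actin and GAPDH, goes up as RNA degrades. It was 0.17, -0.02 and 0.27 on the affected arrays, against 0.02, 0.13 and -0.24 on the controls. Actin and GAPDH did not rank the arrays alike.

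Differences between affected and control hearts were small for all 63 genes, running from -0.25 for SDHD to 0.39 for COX7A2L on the log2 scale. In 29 genes (46.0%) the affected mean was higher and in 34 it was lower, where 35.0% of all 15115 genes were higher. The median difference was -0.01, and it was 0.06 after the median of each array was subtracted, so its sign depended on the scaling. The median over all genes was -0.07. None of the 63 differed by more than 0.5, while 1453 (9.61%) of all genes did. RNA of whole tissue does not tell fewer cells of a type from less RNA per cell.

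No respiratory chain gene passed the adjusted threshold of 0.05 (limma, n = 3 against n = 3), and neither did any other gene (0% of 15115), the smallest adjusted p among the 63 being 0.322. At an unadjusted p under 0.05, limma gave 3 of the 63 as higher in affected hearts and 1 as lower, against a background of 4.88% higher and 5.64% lower over all genes. Affected and control values did not overlap in 4 members that were higher (background 5.8%) and in 2 that were lower (background 41.7%). The shares of higher members were thus near the background. Those of lower members were below it. Of the 120 respiratory chain probe sets 4.17% followed the control tags, against 41.8% of all probe sets, and the part of this in the counts was not tested. The unadjusted counts were 8 higher and 1 lower after the median of each array was subtracted and 6 and 1 after quantile normalization. Over all genes the first of these moved the counts from 737 higher and 852 lower to 990 and 337, and the second to 922 and 1050. The member counts also shifted with single arrays, to 1 and 1 without affected 1 or without affected 3, and 5 and 4 without affected 2. They were 5 and 2 without control 2, and 2 and 4 without control 3. The counts over all genes without single arrays are not given here.

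The intervals show how large a difference these 6 arrays leave room for. The 95% interval of the difference lay within -1 and 1, that is within 2-fold, for all 63 genes, and within -0.5 and 0.5 for 50 of them. The lowest bound was -0.66, for NDUFS1, and the highest 0.92, for COX7A2L. A p that misses the threshold does not show that the groups were alike within these bounds.

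**Figure D1:**
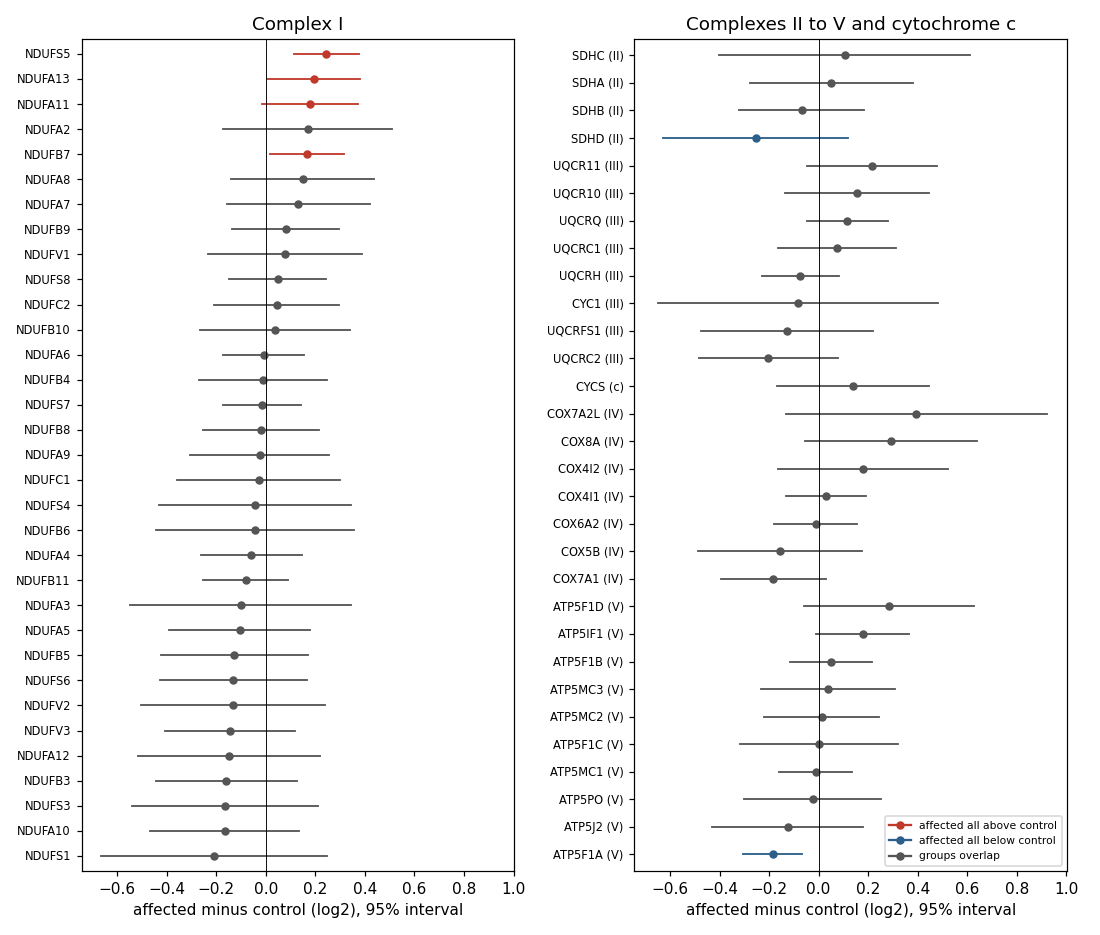
Affected minus control on the log2 scale (x axis) with its 95% interval from limma for each of the 63 genes, ordered by size within each complex, n = 3 dogs a group. The 4 genes in red had all affected values above all control values and the 2 in blue all below, and all points lie between -0.25 and 0.39.

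Between affected and control hearts, no complex differed by more than the spread between dogs when all its probe sets were used. For complex I the median over its genes averaged -0.0058 ± 0.07 on the affected arrays and 0.0030 ± 0.14 on the controls (SD, n = 3 each). Complex II had -0.08 ± 0.13 and -0.04 ± 0.16, and complex III had -0.0011 ± 0.04 and -0.04 ± 0.17. Complex IV had 0.0068 ± 0.07 and -0.03 ± 0.09, and complex V had -0.0058 ± 0.03 and -0.02 ± 0.10. In each complex the difference between these means was smaller than the larger of the SDs, and affected and control arrays overlapped. The median gene difference was -0.03 in complex I, -0.0087 in complex II, 0.00014 in complex III, 0.03 in complex IV and 0.0077 in complex V, with no test made of a score over members. With the median of each array subtracted these were 0.05, 0.06, 0.07, 0.10 and 0.08, all above 0. Complex IV depended on the choice of probe sets. Its median was 0.37 over the 5 genes left when the 40% of probe sets that varied least were dropped (the range filter), where the other complexes lay between -0.08 and 0.05. It was 0.11 with the largest-range probe set of each gene. Both choices use the range over the arrays of both groups, so they favour probe sets with large group differences. The range filter left out COX7A1 and COX4I1, which differed by -0.18 and 0.03.

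**Figure D2:**
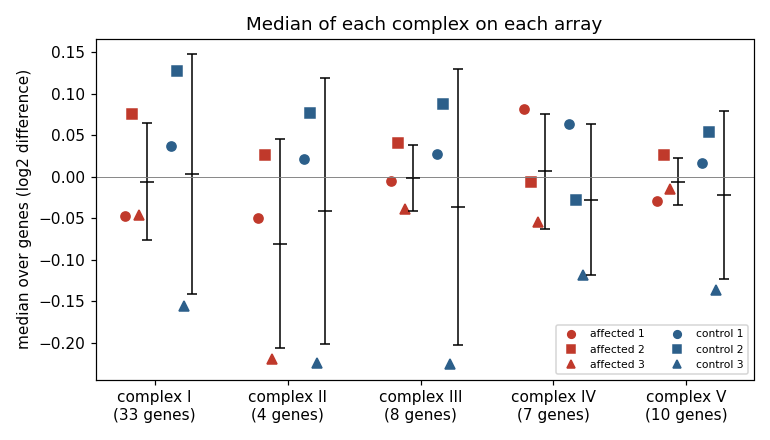
Median over the genes of each complex (y axis, log2 difference from the median of 6 arrays) on each array, affected left of control, with the group mean and SD as black bars (n = 3). Control 3 lies lowest in each of the 5 complexes, and affected 2 lies above affected 1 and affected 3 in complexes I, II, III and V.

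In complex I, 12 genes had a higher and 21 a lower affected mean, between 0.24 for NDUFS5 and -0.21 for NDUFS1. NDUFS5, an accessory subunit of the membrane arm, had values of 0.10, 0.13 and 0.11 on affected 1, 2 and 3, against -0.10, -0.09 and -0.21 on control 1, 2 and 3. The groups did not overlap, and its 2 probe sets differed by 0.25 and 0.24. The difference was 0.24 (SE 0.05, 95% interval 0.11 to 0.38, limma adjusted p = 0.322), or 1.18-fold, and ran from 0.21 to 0.26 with 1 array left out. It was the smallest unadjusted p of the 63 genes, at 0.00472.

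Another 3 accessory subunits of complex I were higher without overlap. NDUFA13, also known as a cell death regulator, had 0.14, 0.11 and 0.03 on the affected arrays, against -0.03, -0.04 and -0.23 on the controls. NDUFB7, on the outer face of the membrane arm, had 0.03, 0.04 and 0.16, against -0.03, -0.10 and -0.13. NDUFA11, a membrane subunit, had 0.19, 0.0057 and 0.18 on the affected arrays, against -0.0057, -0.15 and -0.0062, so that affected 2 lay almost level with 2 of the controls. Their differences were 0.19 (SE 0.07), 0.17 (SE 0.06) and 0.18 (SE 0.08), each with a limma adjusted p of 0.322.

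The core subunits in the arm of complex I that reaches into the matrix and oxidises NADH showed no such separation. NDUFV1, which binds NADH and flavin, differed by 0.08 (SE 0.12), and its partner NDUFV2 by -0.13 (SE 0.15). NDUFS1, the large iron-sulphur subunit beside them, had -0.10, 0.04 and -0.44 on the affected arrays, against 0.28, 0.07 and -0.22 on the controls. Its difference was -0.21 (SE 0.18) and was -0.07 without affected 3. Nearer the ubiquinone site, NDUFS3, NDUFS7 and NDUFS8 differed by -0.16 (SE 0.15), -0.02 (SE 0.06) and 0.05 (SE 0.08). None of these 6 passed the adjusted threshold. The 12 NDUFA genes had a median of -0.02, from -0.17 for NDUFA10 to 0.19 for NDUFA13. NDUFA4, which is counted here by its symbol but is also known as a subunit of complex IV, differed by -0.06 (SE 0.08). The 11 NDUFB and NDUFC genes had a median of -0.02, from -0.16 for NDUFB3 to 0.17 for NDUFB7, and the remaining accessory genes NDUFS4, NDUFS6 and NDUFV3 lay at -0.04, -0.13 and -0.14.

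Complex II is encoded wholly in the nucleus, and all 4 of its subunits were measured. SDHA, the flavoprotein that oxidises succinate, differed by 0.05 (SE 0.13), and SDHB, its iron-sulphur partner, by -0.07 (SE 0.10). SDHC, a membrane anchor, differed by 0.10 (SE 0.20), with -0.25 on affected 1 and -0.51 on control 3. SDHD, the other anchor, had -0.10, -0.0018 and -0.53 on affected 1, 2 and 3, against 0.04, 0.10 and 0.0018 on the controls. The groups did not overlap, though affected 2 and control 3 were almost level, and affected 3 lay far below the rest. The difference of -0.25 (SE 0.15, limma adjusted p = 0.322) was -0.10 without affected 3.

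In complex III, 4 genes had a higher and 4 a lower affected mean, and both electron carrying subunits were among the lower and 3 of 4 small subunits among the higher. CYC1, the cytochrome c1 subunit, differed by -0.08 (SE 0.22), with 0.39 on control 2 and -0.37 on control 3. UQCRFS1, the Rieske iron-sulphur protein, differed by -0.13 (SE 0.14). Of the core proteins, UQCRC2 differed by -0.20 (SE 0.11) and UQCRC1 by 0.07 (SE 0.09). Among the small subunits, UQCR11 had 0.12, 0.02 and 0.12 on the affected arrays, against -0.21, 0.08 and -0.26 on the controls. Control 2 lay within the affected range for UQCR11, whose difference was 0.22 (SE 0.10, limma adjusted p = 0.322). UQCR10 and UQCRQ differed by 0.15 (SE 0.11) and 0.12 (SE 0.06), and UQCRH, the hinge protein that holds cytochrome c1, by -0.07 (SE 0.06). CYCS, the mobile carrier cytochrome c itself, had 0.05, 0.09 and -0.10 on the affected arrays, against 0.04, -0.05 and -0.35 on the controls, a difference of 0.14 (SE 0.12).

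Complex IV held the gene with the highest difference of the 63, which also had the widest range over the 6 arrays. COX7A2L, a factor that links complexes III and IV into supercomplexes, had 0.52, -0.10 and 0.19 on affected 1, 2 and 3, against 0.11, -0.33 and -0.36 on control 1, 2 and 3. Affected 2 lay below control 1, so the groups overlapped. Its difference was 0.39 (SE 0.21, limma adjusted p = 0.322), or 1.31-fold, and was 0.24 without affected 1. COX8A, the ubiquitous form of the smallest subunit, had 0.26, -0.06 and 0.21, against 0.05, -0.34 and -0.18, with affected 2 again inside the control range. COX8A differed by 0.29 (SE 0.14, limma adjusted p = 0.322). COX5B, which binds zinc on the matrix side, differed by -0.16 (SE 0.13).

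Several subunits of complex IV have one form typical of heart and skeletal muscle and another found more widely. COX7A1, the muscle form of subunit 7A, had -0.16, 0.03 and -0.18 on the affected arrays, against 0.14, -0.03 and 0.12 on the controls, and affected 2 and control 2 overlapped. It differed by -0.18 (SE 0.08, limma adjusted p = 0.322) and stayed between -0.25 and -0.14 with 1 array left out. COX6A2, the muscle form of subunit 6A, differed by -0.01 (SE 0.07), the mean of probe sets at 0.11 and -0.13, and by 0.11 with the largest-range probe set or the range filter. The widely used form COX4I1 and its counterpart COX4I2, known best from lung, differed by 0.03 (SE 0.06) and 0.18 (SE 0.13). COX4I2 minus COX4I1 was 0.16, -0.11 and 0.16 on the affected arrays, against -0.25, 0.13 and -0.13 on the controls. This contrast differed by 0.15 between the groups (two-sided exact permutation test, p = 0.2, adjusted p = 0.4 over the 2 isoform pairs compared), where 0.1 is the smallest p that 3 against 3 arrays allow. With the largest-range probe set of each gene the contrast was 0.33 (exact p = 0.3), since the 2 probe sets of COX4I2 differed by 0.39 and -0.03. The partner forms COX6A1 and COX7A2 were not analysed here.

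In complex V, 6 genes had a higher and 4 a lower affected mean. ATP5F1A, the alpha subunit of the catalytic F1 head, had -0.09, 0.0030 and -0.04 on the affected arrays, against 0.14, 0.12 and 0.17 on the controls. The groups did not overlap, and the difference of -0.19 (SE 0.05, 95% interval -0.30 to -0.07, limma adjusted p = 0.322) gave the single unadjusted p under 0.05 among the lower genes, 0.00974. It came from 1 of its 3 probe sets, which differed by -0.52 and followed the control tags at a correlation of 0.98, while the others differed by -0.09 and 0.05. The tags themselves differed by -0.09. On control 3 that probe set had 1.02 and the others -0.25 each, values that offset one another in the gene mean. Fitted singly in limma, the probe sets had unadjusted p of 0.10 for that one and 0.63 and 0.64 for the others. Without probe sets that follow the tags, the gene's difference was -0.02. ATP5F1B, the beta subunit that carries the catalytic sites, differed by 0.05 (SE 0.07), and ATP5F1C, the central shaft, by 0.0030 (SE 0.13). ATP5F1D, the delta subunit of the shaft, had 0.30, -0.06 and 0.43, against -0.12, -0.06 and -0.0029 on the controls, and affected 2 lay inside the control range. Its difference was 0.28 (SE 0.14, limma adjusted p = 0.322), and 0.0019 for affected 2 alone against the 3 controls.

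The 3 genes of the membrane ring of complex V lay close to 0. ATP5MC1, ATP5MC2 and ATP5MC3 encode the same mature c subunit of the proton-driven ring and differed by -0.01 (SE 0.06), 0.01 (SE 0.09) and 0.04 (SE 0.11). ATP5MC1 minus ATP5MC3 differed by -0.05 between the groups (two-sided exact permutation test, p = 1). ATP5PO, of the stator stalk, differed by -0.02 (SE 0.11) and ATP5J2, a small membrane subunit, by -0.13 (SE 0.12). ATP5IF1, which blocks ATP hydrolysis when the proton gradient fails, had 0.10, 0.14 and 0.0040 on the affected arrays, against -0.10, 0.0093 and -0.20 on the controls. Only affected 3 lay below the highest control, and the difference was 0.18 (SE 0.07, limma adjusted p = 0.322).

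**Figure D3:**
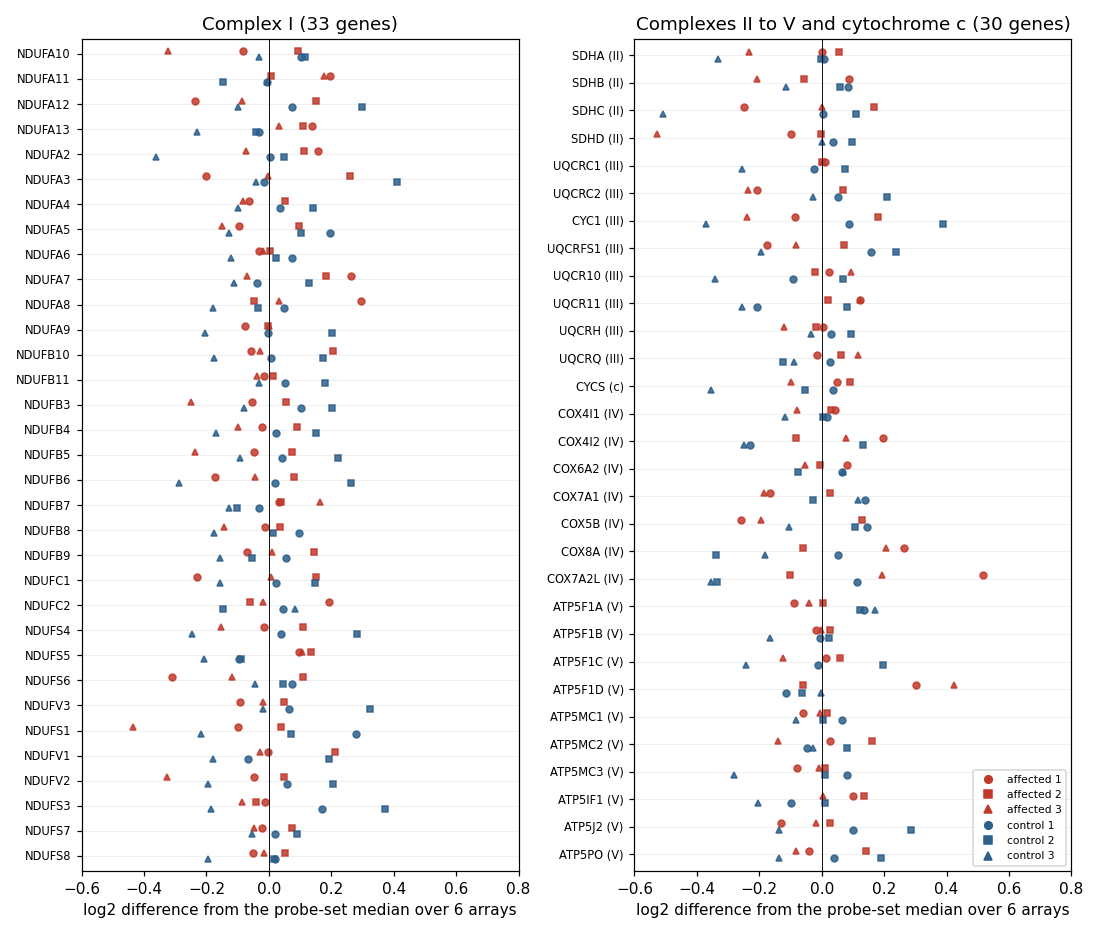
Value of each of the 63 genes on each array (x axis, log2 difference from the median of 6 arrays, averaged over a gene's probe sets), affected in red above control in blue for every gene. Control 3 (blue triangles) is the lowest array for 37 genes, and affected 1 and affected 3 (red circles and triangles) often lie together on one side of affected 2 (red squares).

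Single arrays stood out within both groups. Control 3 was the lowest of the 6 arrays in 37 of the 63 genes (58.7%) and lay below 0 in 58, where it was the lowest in 2915 of all genes (19.3%). It was the highest in 1 of the 63, but in 7088 of all 15115 genes. Its median over all probe sets, 0.09, was also the highest of the 6 arrays. Control 2 was the highest in 24 (38.1%), against 8.77% of all genes. Among the affected arrays, affected 2 lay above 0 in 50 of the genes, affected 1 in 24 and affected 3 in 18. Affected 1 and affected 3 both lay below affected 2 in 42 genes (66.7%; 21.7% of all genes), as for NDUFS1, UQCRC2 and COX7A1. They both lay above it in 10 (15.9%; 52.6% of all genes), among them COX7A2L, COX8A, ATP5F1D, UQCR10 and UQCR11. Affected 1 and affected 3 were also the arrays with higher poly-A controls, lower bioC controls and higher mean 3' minus 5' differences. Control 3 had the lowest mean 3' minus 5' difference. The higher means came from actin, at 0.31 and 0.58 on affected 1 and affected 3. GAPDH gave 0.02 and -0.03 there, against 0.14 on affected 2 and 0.15 on control 2. The control tag mean was highest on control 3, at 0.13, against 0.06 on control 1 and 0.01 on control 2. It was -0.03, -0.03 and -0.01 on affected 1, 2 and 3. The part of these array measures in the gene values was not tested. For affected 2 alone against the 3 controls the median over the 63 genes was 0.07.

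Probe sets of one gene did not always run alike. Of the 39 genes with several probe sets, all had the same sign in 28 and differed in sign in 11. UQCR11 had the most, 6, and they differed by 0.75, 0.39, 0.07, 0.04, 0.03 and 0.01. The first had -0.04, 0.12 and 0.45 on the affected arrays, against -0.82, 0.04 and -0.92 on the controls. NDUFS1 differed by -0.46, -0.29, -0.06 and -0.02 over its 4 probe sets. UQCRC2 differed by -0.49 in 1 probe set, with -0.62, 0.27 and -0.62 against 0.09, 0.51 and -0.09. Its other 3 lay between -0.11 and -0.10, and 1 of them, at -0.11, followed the control tags at a correlation of 0.99. The 5 member probe sets that followed the tags belonged to NDUFC1, NDUFC2, UQCRC2, UQCRH and ATP5F1A, and all were lower in affected hearts. COX8A was positive in all 4, from 0.06 to 0.45. No probe set of a member passed the adjusted threshold (limma, smallest adjusted p = 0.296), against a background of 0.00233% of all 42924 probe sets. At an unadjusted p under 0.05 there were 8 of 120, against a background of 10.9%. Probe sets with names ending in s_at (61) or x_at (7) can bind more than 1 transcript, so that close copies of a gene may add to their signal.

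**Figure D4:**
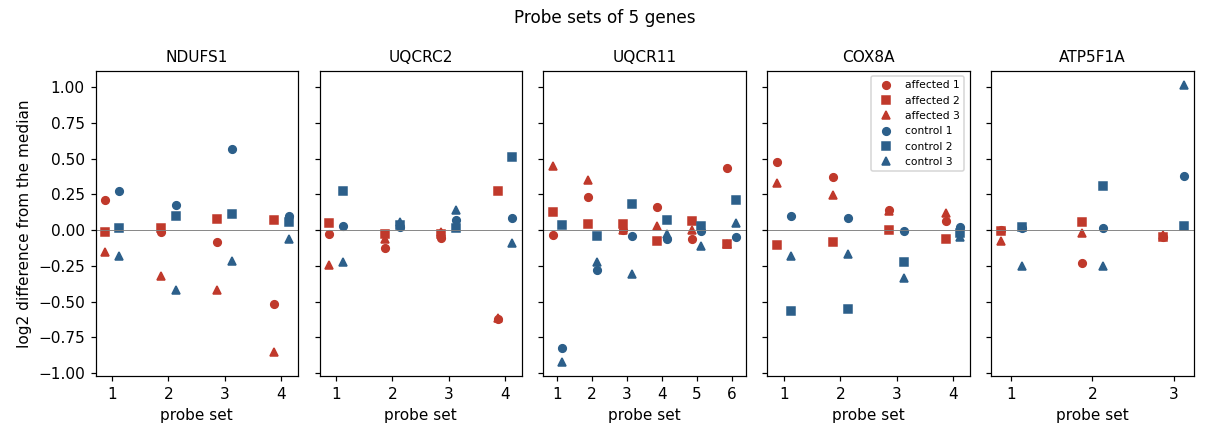
Values of each probe set of NDUFS1, UQCRC2, UQCR11, COX8A and ATP5F1A on each array (y axis, log2 difference from the median), with probe sets ordered from the highest to the lowest difference and affected in red left of control in blue. One probe set each of UQCRC2, UQCR11 and ATP5F1A has a wider range than the others of its gene, and that of ATP5F1A is high on control 1 and control 3.

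Genes that build and supply the chain were also without a gene past the adjusted threshold. Of 46 listed assembly factors 37 were measured, with a median difference of 0.00017, and 5 were higher (background 4.88%) and 2 lower (background 5.64%) at an unadjusted p under 0.05. TTC19, a factor of complex III, differed by 0.57 (SE 0.16), and COX18 and COX20, which insert and guard a mitochondrially encoded subunit of complex IV, by 0.28 (SE 0.09) and -0.45 (SE 0.14). Each had a limma adjusted p of 0.322, and the groups overlapped in none of these 3. Over the whole list they did not overlap in 5 higher (background 5.8%) and 4 lower genes (background 41.7%). Regulators of mitochondrial transcription and biogenesis (18 of 20 measured) had a median of -0.02, and 0 had an unadjusted p under 0.05 in limma. Among them the mitochondrial RNA polymerase POLRMT differed by 0.36 (SE 0.17) and the DNA polymerase POLG by 0.48 (SE 0.22), with 0.53, -0.04 and 0.81 on the affected arrays, against -0.0008, -0.13 and 0.0008 on the controls. ESRRB, an orphan nuclear receptor, differed by -0.10 (SE 0.05), but its values followed the control tags at a correlation of 0.99, against a difference of -0.09 in the tags themselves. It was 1 of 4 genes of this list above 0.9.

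Ubiquinone synthesis genes had a median of 0.08, with 2 higher (background 4.88%) and 1 lower (background 5.64%) at an unadjusted p under 0.05. Of 14 listed symbols 13 were measured, and the other, ADCK3, is another name of the measured COQ8A. COQ4 had 0.02, 0.40 and 0.15 on the affected arrays, against -0.29, -0.06 and -0.28 on the controls, a difference of 0.40 (SE 0.12, limma adjusted p = 0.322). PDSS2, which makes the isoprenoid tail, differed by 0.51 (SE 0.18) and COQ10A, a quinone-binding protein, by -0.25 (SE 0.09). Of the genes that mark the bulk of mitochondrial membranes, the median was 0.09. Here 12 of 17 listed symbols were measured, and TOMM70A and PHB1 are other names of the measured TOMM70 and PHB. There the import motor subunit TIMM44 differed by 0.63 (SE 0.21), the import receptor TOMM22 by 0.35 (SE 0.14), and CHCHD3, of the cristae junctions, by -0.25 (SE 0.09).

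The marker lists of connective tissue and immune cells differed between arrays by more than the respiratory chain did. Fibroblast markers (9 of 9 measured) had list medians of 1.09, 0.09 and 0.66 on affected 1, 2 and 3, against -0.31, -0.12 and -1.51 on the controls. The macrophage list (8 of 8) had 2.06, -0.23 and 0.28, against 0.68, -0.41 and -0.73. Cardiomyocyte markers (13 of 15) had -0.03, 0.08 and 0.15, against 0.0089, -0.06 and -0.18, with a median difference of 0.17 and 11 of 13 genes higher. Control 3 was thus the lowest array for fibroblast and macrophage markers as well as for cardiomyocyte markers and the respiratory chain. The medians of the remaining lists differed by -0.01 (endothelial, 7 of 7), 0.12 (smooth muscle and pericyte, 6 of 6), 0.61 (adipocyte, 5 of 5, highest on affected 1) and -0.12 (skeletal muscle, 6 of 7, of which 4 followed the control tags). Whether a marker is at 0 cannot be read from centred values, and the part of cell makeup in the gene values was not tested.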

How the data were processed

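Left ventricular total RNA of 6 dogs was measured on 1 canine Affymetrix array each, per the labels. The deposited values were taken as log2. GCRMA and MAS5 are named, per the submitters' processing notes, with no role or version, and the scale was inferred from the values. Each probe set was centred on its median over the 6 arrays in the deposited table (largest absolute median 5e-07). Coordinates are not printed, since the genome build was not given in the sources used here.

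The 111 control probe sets were left out. Probe sets with exactly 1 symbol (29254) were averaged per gene, unfiltered (5 probe sets naming a gene of the rule beside others were not used), and affected was compared with control over all 15115 genes with limma 3.58.1 in R 4.3.3 (lmFit, eBayes, group only, two-sided, 4 residual and 1.278 prior degrees of freedom, Benjamini-Hochberg adjustment, threshold 0.05). Precision is limited by 3 arrays a group. Of the 63 genes, 61 matched the RefSeq gene table by gene ID, and the array's symbols were kept for all. Isoform pairs were compared by an exact permutation test where both forms were measured, which held for 2 of 5 pairs planned. The fit was tested on simulated data with planted differences larger than that of any member. Differences as small as those of the members were not planted. Alternatives changed the filter, scaling, summary of probe sets, covariates and arrays.

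The members, gene lists and alternatives were chosen with earlier results of these data known. Named genes were, in complexes I, III, IV and V, the 5 with the smallest p, all of complex II, CYCS, catalytic subunits, isoforms, genes whose probe sets disagreed in sign by over 0.5, and 3 per list. Others named (NDUFA4, NDUFA10, NDUFS4, NDUFS6, NDUFV3, CYC1, UQCRC1, ATP5F1C and ATP5PO) complete the account of the complexes.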

Additional observations from a re-analysis of the deposited data

How the results depend on the processing

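No respiratory chain gene passed the adjusted threshold under any of the 18 alternatives, where the smallest adjusted p in limma ran from 0.162 without control 2 to 0.765 for affected 2 against the 3 controls. The count of genes higher at an unadjusted p under 0.05, 3 as reported, was 0 when the 40% of probe sets that varied least were dropped (46 of the genes left), 6 after quantile normalization, 8 with each array's median subtracted, 1 with sex and 6 with age as a term, and 0 for affected 2 against the 3 controls. The lower count, 1 as reported, was 0 with the range filter, with the median or the largest-range probe set per gene, and for affected 2 alone. Over all genes the counts were 679 higher and 306 lower with the range filter, against 737 and 852 as reported. They were 922 and 1050 after quantile normalization and 765 and 622 with the largest-range probe set. For the remaining settings of this section the counts over all genes are not given here. Shifts of the members there were therefore not compared with shifts of the whole table. With the replicate block the member counts were 6 and 3. Deviations from the group means correlated at 0.25, 0.16 and 0.06 for arrays of the same number, which is too low to take the numbers as pairs. All 3 affected arrays and all 3 controls correlated best with the array of their own number, a hint from the data and not the design. Without probe sets that follow the tags, an alternative chosen after seeing the data, they were 1 and 0. With 1 array left out they ran from 1 to 5 and from 1 to 4. The median of complex IV was 0.37 with the range filter (5 genes) and 0.11 with the largest-range probe set. The other medians moved by less than the spread between dogs, but 28 of 108 such values changed sign, and their direction is not settled. ATP5F1A was at 0.042 with the median of its probe sets, in place of -0.19. Among all genes 1 passed the adjusted threshold with the range filter.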
